A study of Mus musculus with 4 samples.

Results

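The genes described here encode the protein subunits of the cytosolic ribosome. They were taken by symbol: every gene of the deposited expression table whose symbol begins with Rpl, Rps or Rplp, followed by a number and at most a short paralog suffix. The rule found 83 of 46603 genes, 51 for the large subunit and 32 for the small subunit, and all 83 were present in the mouse GENCODE M21 annotation, where they lie on 19 chromosomes, 4 of them on the X. Mitochondrial ribosomal proteins, pseudogenes with other symbols and subunits with other names (such as Rpsa, Fau, Rack1 and Rpl36al) fall outside it. The annotation gives 82 of the members as protein-coding and Rps4l as a transcribed processed pseudogene.

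RNA came from whole lungs of C57BL/6 background littermates aged 6 to 8 weeks, with 2 wild-type libraries (WT, Ifnar1+/+) and 2 libraries from mice carrying Ifnar1 S526A (SA). Ifnar1 is a chain of the type I interferon receptor, and the serine changed in SA is known as the site whose phosphorylation marks the receptor for degradation. All mice of both genotypes had been injected intravenously, 3 times a week for 3 weeks, with 100 µl of culture medium taken from B16F10 melanoma cells, an established line of this species, so every value below is from lungs exposed to tumour medium and no library of untreated mice was analysed here. The comparison asks how the allele changes the lung under that exposure. The series' design text speaks of biological replicates, but no label says which animal a library came from, so the p-values measure only the spread between these libraries. In whole tissue, fewer cells of a type and less RNA per cell cannot be told apart.

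Each ribosome carries a single copy of nearly every ribosomal protein, and cells make the proteins in matched amounts, so their mRNAs are usually among the most abundant of a cell. These mRNAs begin with a run of pyrimidines, the terminal oligopyrimidine (TOP) motif, through which the kinase complex mTORC1 and the protein Larp1 control their translation. The genes have also seeded large numbers of processed pseudogenes, intron-less copies that keep much of the parent's sequence.

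Start-site sequences of 6 members are shown as examples of the pyrimidine run; they were picked after the sequences had been seen, all have a long run, and they do not represent the family. RefSeq promoter windows on GRCm38.p6 matched 62 of the 83 members by symbol. The lines below give 30 bases read 5′ to 3′ on the gene's strand, with the annotated start at base 16, and capitals mark the longest run of C and T.

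Rpl15 (chr14:18270972-18271001, minus strand): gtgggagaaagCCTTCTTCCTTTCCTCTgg
Rpl7a (chr2:26910792-26910821, plus strand): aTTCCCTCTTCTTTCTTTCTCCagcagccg
Rpl35 (chr2:39005117-39005146, minus strand): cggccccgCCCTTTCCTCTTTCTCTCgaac
Rps9 (chr7:3704026-3704055, plus strand): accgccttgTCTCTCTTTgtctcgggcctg
Rps6 (chr4:86857353-86857382, minus strand): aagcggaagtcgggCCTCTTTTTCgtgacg
Rps10 (chr17:27635230-27635259, minus strand): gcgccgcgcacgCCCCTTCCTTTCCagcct

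The run was 21 bases in Rpl7a, 18 in Rpl35, 17 in Rpl15, 13 in Rps10, 10 in Rps6 and 9 in Rps9. A run of at least 8 such bases within this window was found in 27 of the 62 members (43.5%) and in 13.9% of the 27025 genes with a promoter window. Over the whole 300-base promoter (250 bases before the start and 50 after), searched on both strands, CCGGAA, the core of the ETS factor motif, was found in 34 members (54.8%) and in 16.7% of all genes. CTTTCC was found in 32 members (51.6%) and in 29.3% of all genes. Both motifs were chosen after the sequences had been seen, and a match is only a match of letters.

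Coding sequence shared with copies bears on what a read count of a member means. The line below gives the first 50 bases of the coding sequence of Rps27, from GENCODE M21 transcripts, with the start codon in capitals.

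Rps27 (gene at chr3:90212522-90213651): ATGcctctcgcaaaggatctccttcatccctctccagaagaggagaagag

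The Rps27 stretch, bases 1 to 50 of a coding length of 255, also occurs whole in Rps27rt, a protein-coding retrogene at chr9:114982366-114982739.

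Expression values are the authors' log2 CPM, read counts scaled to library size. The 4 libraries held 27381916 to 38378936 reads assigned to genes, at which 3 reads correspond to 0.0782 to 0.110 CPM. Across the 14534 genes with a mean of at least 1 log2 CPM, the first principal component held 73.1% of the variance and ran from WT 1 (-42.5) through WT 2 (-5.72) and SA 1 (11.7) to SA 2 (36.5), so WT 2 lay nearer to SA 1 than to WT 1. All 8 lung markers examined were expressed, with a summed level of 38132 to 42519 CPM in WT and 38954 to 46177 CPM in SA. Of these, the endothelial markers Cldn5 (-0.9997 ± 0.16, SE) and Cdh5 (-0.50 ± 0.10) were lower in both SA libraries. The epithelial marker Epcam (0.32 ± 0.05) was higher in both, and these markers had limma adjusted p of 0.061 to 0.079. The endothelial Pecam1 was lower in both by less (-0.17 ± 0.12), and the epithelial Scgb1a1 was higher in both (0.29 ± 0.36). The epithelial Sftpc (-0.02), Sftpb (-0.23) and Ager (-0.12) had lower means in SA, with overlapping libraries, so epithelial markers shared no direction. Cardiac muscle markers differed between the genotypes: 10 of 10 were higher in both SA libraries than in both WT libraries, where 38.6% of all genes tested were. Their median difference was 1.85 log2 units, and their summed level was 483 and 864 CPM in WT and 1492 and 2540 CPM in SA. Among them, only Myh7 had an adjusted p under 0.05 (1.95 ± 0.11, SE; limma adjusted p 0.037). Skeletal muscle markers summed to 1051 and 1364 CPM in WT and 2353 and 3374 CPM in SA, and ciliated cell markers to 190 and 214 CPM in WT and 361 and 364 CPM in SA. T cell markers summed to 23.0 and 23.1 CPM in WT and 27.8 and 27.4 CPM in SA. None of these markers was at 0 in all libraries. The part of these cell types in the differences below was not tested.

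The members differed widely in level. Per kilobase of merged exons, the most abundant was Rplp1, an acidic protein of the stalk that recruits elongation factors, at 9.61 log2 CPM per kilobase, followed by Rpl8 and Rps15, each at 8.73. Rpl4 stood at 8.49 and Rplp0, the base of the stalk, at 8.04 on the same scale. Merged exons take in every annotated transcript of a gene, 499 bases for Rplp1 and 4483 for Rps3, and can exceed the expressed mRNA. The order therefore depends in part on the annotation. Core subunits stood at the other end of this order: Rpl24 reached -0.38, Rpl23a -1.504 and Rps16 -1.62 log2 CPM per kilobase, although every ribosome holds each of them. Rps16 had 9 and 17 reads in WT and 11 and 15 in SA. Rpl23a had 5 and 10 reads in WT and 8 and 16 in SA, and Rpl24 had 23 and 28 in WT and 20 and 29 in SA. Of the paralogs known from testis, Rpl39l had 2 to 4 reads per library and Rpl10l had 0 in all 4, where 3 reads is the most that a count of 0 allows per library, for counting error only.

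Members with low counts shared more of their sequence with other genes. For each member, the distinct 50-base windows of its protein-coding transcripts were looked up in the transcripts of all other annotated genes. The median share of windows found elsewhere was 49.4% in the 30 members with a mean under 4 log2 CPM, 35.7% in the 35 at 4 to 7, and 21.04% in the 18 at 7 or more. For 57 members, another gene held at least 20% of their windows, and for 29 of these it was counted at a higher mean than the member itself. Among the 29 members with such a higher gene, it was annotated as a pseudogene for 25, and it exceeded the member by 0.16 to 6.59 log2 CPM with a median of 3.33. Across the 82 members with windows, level and shared percentage had a Spearman rho of -0.36, or -0.46 with 100-base windows, and the points share libraries and overlapping copies.

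Individual cases show the size of this. Rps29, a small zinc-binding subunit, averaged 0.60 log2 CPM, while Gm14303, which holds 35.8% of its windows, averaged 7.19. Rpl23a averaged -1.74 log2 CPM and its pseudogene Rpl23a-ps3, with 72.2% of its windows, 4.84. Rpl31 averaged 2.24 log2 CPM against 7.16 for Rpl31-ps8, which holds 20.6% of its windows, and Rps27 2.40 against 5.90 for Rps27rt, the retrogene whose first bases are shown above. By contrast, Rps3 shared 2.8% of its windows and averaged 9.24 log2 CPM. The authors' read length and their treatment of reads that map to several places are not given in the sources used here, and the part of shared sequence in these levels was not tested. Levels and differences of the members with large shared portions are therefore uncertain as measures of the parent gene.

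**Figure D1:**
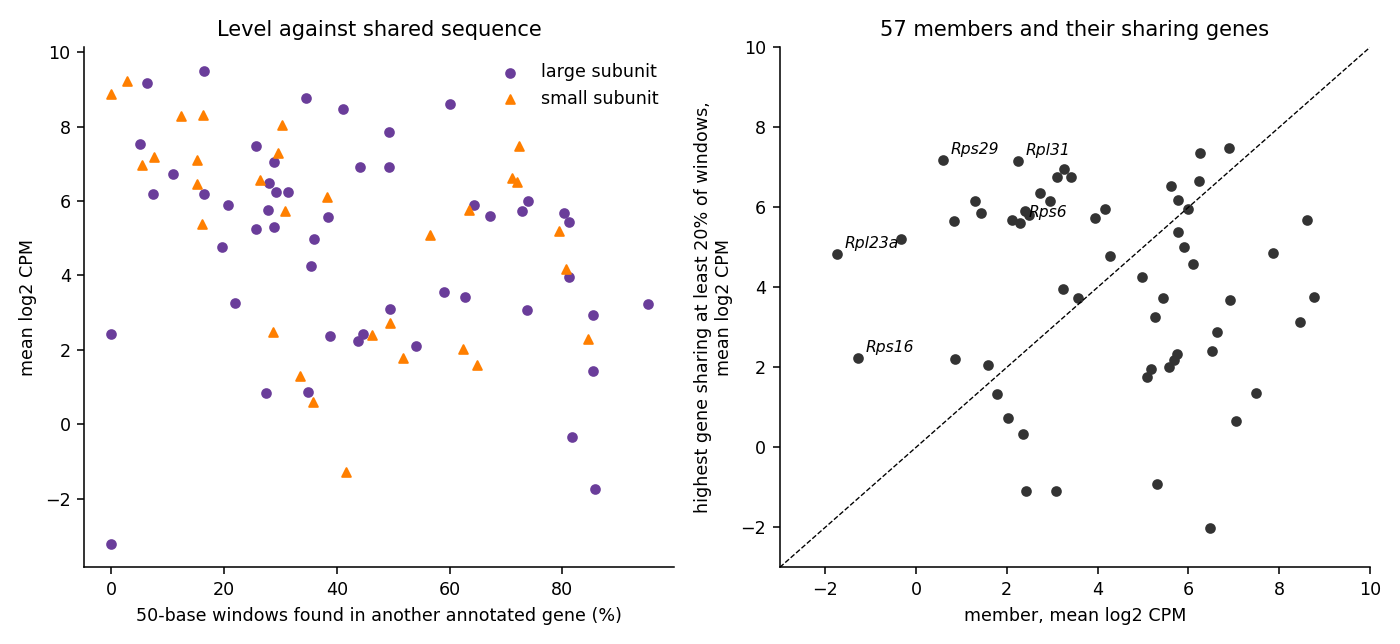
Left, mean log2 CPM over 4 libraries of 81 members against the percentage of their 50-base windows found in another annotated gene; Rps4l, which has no protein-coding transcript, and Rpl10l, with 0 reads, are not drawn. Right, for the 57 members with another gene that holds at least 20% of their windows, the mean log2 CPM of the highest such gene against that of the member; the dashed line marks equal levels, and 29 points lie above it.

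Tests were made on the 75 members (45 large, 30 small) with a mean of at least 1 log2 CPM. The 8 below it were Rpl28, Rpl38, Rps29, Rpl24, Rps16, Rpl23a, Rpl39l and Rpl10l; the member just inside was Rps13 at 1.29 and the member just outside Rpl28 at 0.86. Rpl28 had 70 and 49 reads in WT and 47 and 67 in SA. Rpl38, known in mice for its part in translating Hox mRNAs, had 60 and 60 reads in WT and 38 and 75 in SA. Of all 83 members, 63 were in the authors' own filtered table and 20 were not.

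Most ribosomal protein mRNAs had a slightly higher level in the SA libraries. Their reads made up 0.759% and 0.781% of all gene reads in WT 1 and WT 2, and 0.859% and 0.872% in SA 1 and SA 2. Both SA libraries thus lay above both WT libraries, and each genotype's pair lay close together. Of the 75 tested members, 64 had a higher mean in SA (85.3%; 61.8% of all genes tested did), and 49 were higher in both SA libraries than in both WT libraries, against 38.6% of all genes. Only 5 were lower in both SA libraries, against 22.3% of all genes, and 21 overlapped. The median SA minus WT difference of the members was 0.16 on the log2 scale, a fold of 1.12, with an interquartile range of 0.07 to 0.20, and that of all genes tested was 0.07.

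Single members mostly did not pass the test. With limma over all 14534 genes and Benjamini-Hochberg adjustment at 0.05, 1 member rose and 0 fell, where 0.144% of all genes tested rose and 0.103% fell. At an unadjusted p under 0.05, 33 members were higher and 0 were lower, against 17.4% and 10.3% of all genes. Which of them passed depended on the scaling of the libraries. Centring each library on its median moved the median difference of all genes by 0.11, to -0.04, so more genes were then lower than higher. Of the 75 members, 50 were higher after centring, with a median of 0.05. At an unadjusted p below 0.05, 3 members were higher and 1 was lower, where 3724 of the 14534 genes passed in either direction. The median of the members lay 0.09 above that of all genes before and after centring. Centring moves the difference of every gene by the same amount, so this gap could not change. With quantile normalization, which is not bound in this way, it was 0.16. The split of calls over all genes moved too, from 21 higher and 15 lower to 240 higher and 368 lower.

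The shift was most even among the well counted members. At a mean of 5 log2 CPM or more, a bound chosen after the values were seen, 43 of 48 members were higher in both SA libraries, where 30.9% of the 6221 genes at that level were. Their median difference was 0.19 and that of all genes at that level 0.00. The differences of these 48 had an SD of 0.14, or 0.09 without Rpl15, and those of the 6221 genes an SD of 0.33. The 1 member lower in both SA libraries was Rplp1 (31.4% of genes at that level were), and the 4 that overlapped were Rplp2, Rpl7l1, Rpl30 and Rpl35a. The 27 members under that level were spread more widely, with an SD of 0.29 that takes in Rpl3l at 1.40. Their median was 0.06 and their interquartile range -0.02 to 0.11, against a range of 0.15 to 0.23 for the 48. Of the 27, 19 were higher (70.4%) and 8 lower. Among all genes tested 61.8% were higher, and among those at 5 or more 50.5%, so the share among genes under 5 lay above 61.8%. In both SA libraries, 6 of the 27 were higher and 4 lower, against 38.6% and 22.3% of all genes. Between libraries of 1 genotype the medians were nearer 0. WT 2 exceeded WT 1 in 40 of 75 members (48.0% of all genes), with a median of 0.01, and SA 2 exceeded SA 1 in 44 (48.4% of all genes), with a median of 0.03. Cardiac muscle markers differed more within a genotype, with medians of 0.89 for WT 2 minus WT 1 and 0.77 for SA 2 minus SA 1.

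**Figure D2:**
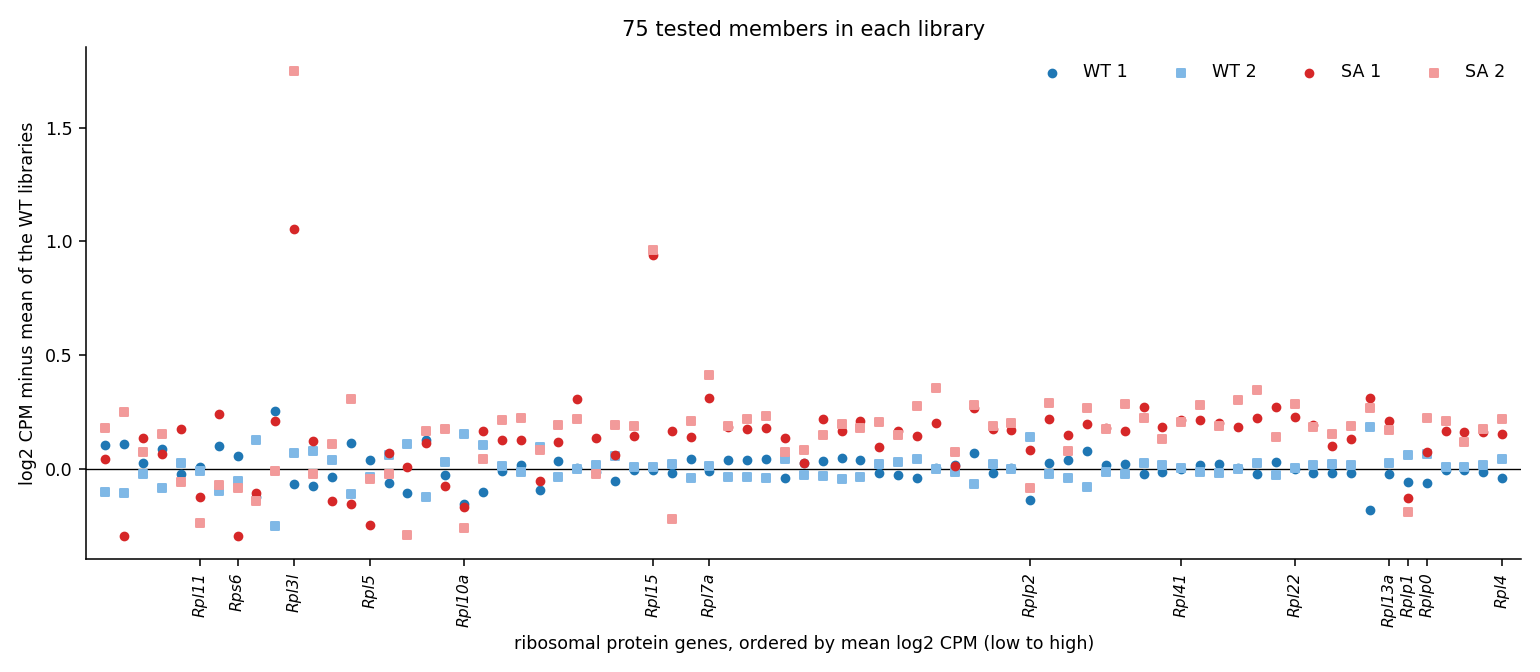
Level of the 75 tested members in each library, as log2 CPM minus the mean of both WT libraries, ordered from the lowest to the highest mean log2 CPM, with some members named on the axis. In most members on the right, the 2 SA points lie together at 0.1 to 0.3 above both WT points; Rpl3l and Rpl15 stand far above, and Rplp1 lies below.

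The large and small subunits had nearly the same median difference. The median difference was 0.16 for the 45 large subunit members and 0.16 for the 30 small subunit members, and large minus small was -0.01. Large subunit mRNAs took 0.439% and 0.453% of gene reads in WT and 0.493% and 0.50% in SA. Small subunit mRNAs took 0.321% and 0.328% in WT and 0.366% and 0.372% in SA. The small subunit was the more uniform, with an SD between its members of 0.09 against 0.27 for the large subunit, which holds Rpl15 and Rpl3l. All 20 small subunit members at a mean of 5 or more were higher in both SA libraries, by 0.10 (Rps10) to 0.29 (Rps14) log2 units with an SD of 0.05. Of the 28 large subunit members at that level, 23 were higher in both, 1 was lower and 4 overlapped. Among all genes at that level, 30.9% were higher in both SA libraries and 31.4% were lower in both.

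**Figure D3:**
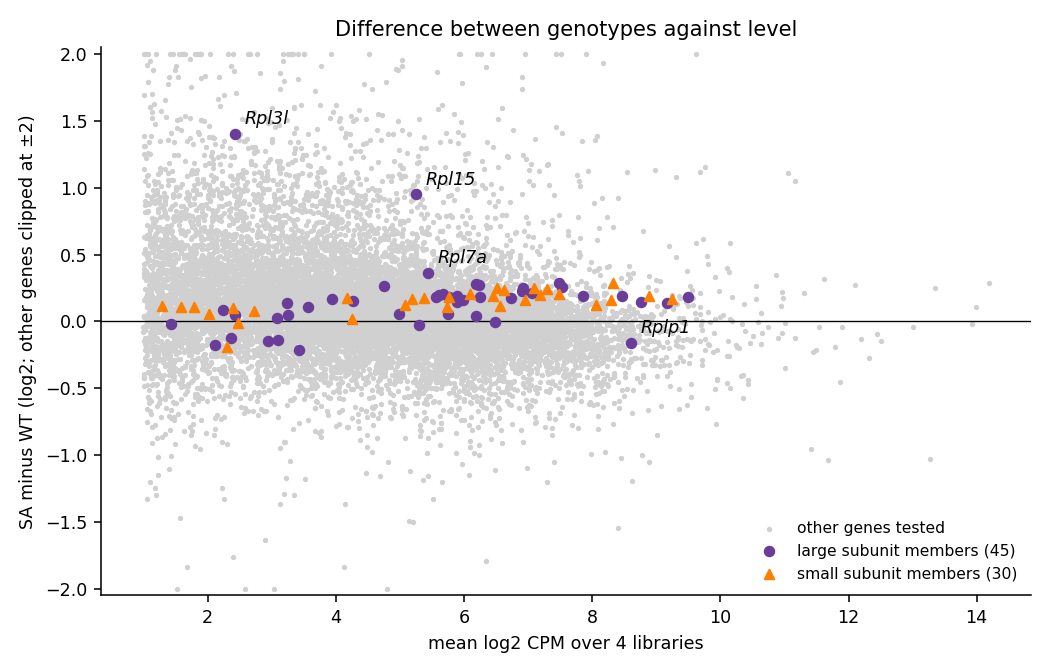
SA minus WT difference (log2) against mean log2 CPM for all 14534 genes tested, with large subunit members as circles and small subunit members as triangles; other genes beyond 2 log2 units are drawn at the edge. The members at a mean above 5 form a narrow band near 0.19, from which Rpl15 at 0.95, Rpl7a at 0.36 and Rplp1 at -0.16 stand apart.

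Rpl15 was the member that rose. It encodes a large subunit protein whose human counterpart is mutated in Diamond-Blackfan anaemia, and lies at chr14:18267823-18271391 on the minus strand (ENSMUSG00000012405, GRCm38). Its level was 4.78 and 4.79 log2 CPM in WT, from 838 and 873 reads, and 5.72 and 5.74 in SA, from 1442 and 2056 reads. The libraries of a genotype nearly coincided and the genotypes were far apart. The difference was 0.95 ± 0.06 (SE; 95% confidence interval 0.79 to 1.11), a fold of 1.93, with a limma adjusted p of 0.037. The call was lost without a mean-variance trend (adjusted p 0.072) and when any single library was left out (adjusted p 0.11 to 0.26), while the difference stayed at 0.94 to 0.96. With a library left out, 1 group is a single library assumed to vary like the other, and 0 to 5 of all genes passed, so these fits could make few calls.

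Copies and neighbours of Rpl15 were examined next. Of the Rpl15 windows, 25.6% occur in other genes; Gm4294, a pseudogene with 22.9% of them, stood at 3.33 and 3.30 log2 CPM in WT and 3.23 and 3.19 in SA, a difference of -0.10 ± 0.09 (SE). By the GENCODE M21 gene bounds, Rpl15 overlaps the first bases of Nkiras1, an inhibitor of NF-kappaB signalling that begins at chr14:18271136 on the opposite strand; the RefSeq start of Rpl15 shown above lies short of it. Nkiras1 stood at 3.30 and 3.34 log2 CPM in WT and 3.78 and 3.76 in SA, a difference of 0.45 ± 0.09 (SE) with an adjusted p of 0.073. The sources used here do not say whether reads were counted by strand, so reads from that overlap may not be told apart. The other 5 tested genes within 1 Mb, a set chosen after the values were seen, differed by 0.13 to 0.31 with adjusted p of 0.14 to 0.50.

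Rpl3l had the largest difference of any member but missed the threshold. It encodes the paralog that takes the place of Rpl3 in ribosomes of heart and skeletal muscle, and lies at chr17:24727820-24736143 (ENSMUSG00000002500). Its level was 1.66 and 1.79 log2 CPM in WT (96 and 109 reads) and 2.78 and 3.47 in SA (187 and 426 reads). Both SA libraries lay above both WT libraries, but far from each other. The difference was 1.40 ± 0.27 (SE; 95% confidence interval 0.69 to 2.12), a fold of 2.64, with an adjusted p of 0.073. Its order over the libraries, lowest in WT 1 and highest in SA 2, was that of the summed cardiac and skeletal muscle markers given above, and it shares no window with another gene. Rpl3 itself, which lines the peptidyl transferase centre, stood at 5.55 and 5.48 log2 CPM in WT and 5.69 and 5.73 in SA, a difference of 0.20 ± 0.06 (SE) with an adjusted p of 0.14. Per kilobase, Rpl3l lay at 0.94 and 1.07 log2 CPM in WT and 2.06 and 2.76 in SA, below the 3.81 to 4.07 of Rpl3 in every library.

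The other paralog pairs showed no difference of that size. Rpl7 was 7.75 and 7.79 log2 CPM in WT and 7.96 and 7.95 in SA (0.19 ± 0.06, SE; adjusted p 0.14), while Rpl7l1 was 6.19 and 6.16 in WT and 6.19 and 6.25 in SA (0.04 ± 0.06, SE). Rpl22, needed for T cell development in mice, was 7.40 and 7.40 in WT and 7.63 and 7.69 in SA, a difference of 0.26 ± 0.06 (SE) with an adjusted p of 0.090. Its paralog Rpl22l1 was 3.41 and 3.62 in WT and 3.68 and 3.56 in SA, so its groups overlapped. Rps27l, a p53 target, was 5.33 and 5.26 in WT and 5.43 and 5.51 in SA (0.18 ± 0.07, SE), whereas Rps27 was 2.61 and 2.10 in WT and 2.56 and 2.34 in SA. The X-linked Rps4x was 7.41 and 7.35 in WT and 7.65 and 7.52 in SA (0.20 ± 0.07, SE; adjusted p 0.17), and Rps4l was 4.15 and 4.34 in WT and 4.19 and 4.33 in SA. Rpl39, which lines the exit tunnel, was 6.05 and 6.04 in WT and 6.24 and 6.40 in SA (0.28 ± 0.07, SE; adjusted p 0.11). Rpl10, which joins late in large subunit maturation, was 3.01 and 3.13 in WT and 3.14 and 3.05 in SA, with overlapping groups. The differences of Rpl22l1, Rps27, Rps4l, Rpl10 and Rpl7l1 turned negative under at least 1 other scaling.

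**Figure D4:**
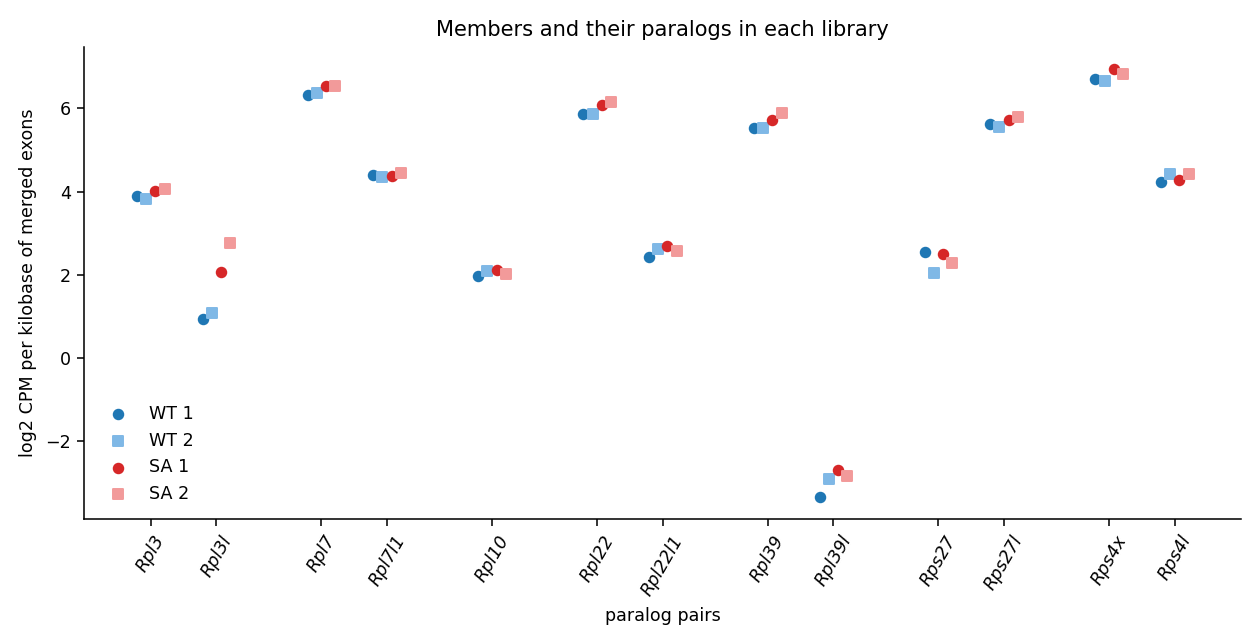
Level of 13 members of the 7 paralog pairs in each library, in log2 CPM per kilobase of merged exons; Rpl10l, with 0 reads, is not drawn. Rpl3l is the paralog whose 2 SA points (2.06 and 2.76) stand well above its 2 WT points (0.94 and 1.07).

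The stalk proteins did not share a direction. Rplp0 was 8.63 and 8.76 log2 CPM in WT and 8.77 and 8.92 in SA, a difference of 0.15 ± 0.09 (SE) with an adjusted p of 0.36. Rplp1 was 8.63 and 8.75 in WT and 8.56 and 8.501 in SA, so both SA libraries lay below both WT libraries, by 0.16 ± 0.08 (SE) with an adjusted p of 0.26. Rplp2, its dimer partner, was 6.34 and 6.62 in WT and 6.56 and 6.39 in SA, and its groups overlapped. Rpl12, at the base of the stalk, was 3.07 and 3.28 in WT and 3.18 and 2.88 in SA. None of the 4 passed the test. Gm10073, a gene annotated as protein-coding that holds 60% of the windows of Rplp1, was 5.91 and 5.73 in WT and 5.59 and 5.54 in SA, a difference of -0.25 ± 0.08 (SE) with an adjusted p of 0.15.

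The subunits best known for signalling were counted low and did not pass. Rpl5 and Rpl11 together bind and block Mdm2 when ribosome assembly fails, which stabilises p53. Rpl5 was 3.06 and 2.98 log2 CPM in WT and 2.78 and 2.98 in SA, and Rpl11 was 2.21 and 2.19 in WT and 2.08 and 1.96 in SA. Rps6, the substrate of the S6 kinases downstream of mTORC1, was 2.45 and 2.34 in WT and 2.10 and 2.31 in SA. Rpl10a was 3.38 and 3.69 in WT and 3.36 and 3.27 in SA. These 4 and Rplp1 were the 5 members lower in both SA libraries, by 0.15 to 0.22 for the 4, with adjusted p of 0.37 to 0.48. Each of the 4 shares 54.0% to 85.4% of its windows with other genes. Their most counted copies lay on the other side: Rps6-ps4 differed by 0.15 ± 0.08, Gm10288 (Rpl11) by 0.09 ± 0.12, Gm15500 (Rpl5) by 0.23 ± 0.06 and Rpl10a-ps1 by 0.19 ± 0.06 (SE), none past the threshold.

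The other members named, by role or as among the largest differences, did not pass. Rpl7a, whose introns host small nucleolar RNAs and whose start sequence is shown above, was 5.24 and 5.26 log2 CPM in WT and 5.56 and 5.66 in SA, a difference of 0.36 ± 0.07 (SE) with an adjusted p of 0.070. It lies at chr2:26910764-26913318, and 81.2% of its windows occur elsewhere. Rps14, lost in a human myelodysplastic syndrome, was 7.99 and 8.36 in WT and 8.48 and 8.44 in SA (0.29 ± 0.14, SE; adjusted p 0.26), with the spread mostly between the WT libraries; without WT 1 the difference was 0.10 and without WT 2 it was 0.47. Rpl32 was 7.31 and 7.36 in WT and 7.56 and 7.68 in SA (0.28 ± 0.07, SE; adjusted p 0.10). Rpl41, the shortest of the ribosomal proteins, was 6.95 and 6.95 in WT and 7.16 and 7.16 in SA. Rpl13a, which in human monocytes silences inflammatory mRNAs after interferon-gamma, was 8.35 and 8.40 in WT and 8.58 and 8.54 in SA (0.19 ± 0.06, SE; adjusted p 0.16). Rps19, the gene most often mutated in Diamond-Blackfan anaemia, was 6.36 and 6.36 in WT and 6.53 and 6.56 in SA (0.19 ± 0.05, SE). Rps18, often used as a reference gene, was 5.09 and 5.11 in WT and 5.24 and 5.29 in SA. Rps27a, made as a fusion with ubiquitin, was 1.98 and 2.02 in WT and 2.17 and 1.94 in SA, with overlapping groups.

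Copies of the members were mostly higher too. Of 53 tested pseudogenes holding at least 20% of a member's windows, 48 were higher in SA (61.8% of all genes), with a median difference of 0.19. Of the 53, 35 were higher in both SA libraries (38.6% of all genes) and 2 were lower in both (22.3%). None passed the adjusted threshold. At an unadjusted limma p below 0.05, 16 were higher (17.4% of all genes) and 0 were lower (10.3%). Copies and parents may share reads, so these are not separate measurements.

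Subunits that the symbol rule leaves out lay in the same range. Rack1, a signalling scaffold on the small subunit, was 9.41 and 9.48 log2 CPM in WT and 9.68 and 9.68 in SA (0.23 ± 0.08, SE; adjusted p 0.16). Rpsa was 6.22 and 6.49 in WT and 6.55 and 6.59 in SA, and Rpl36al was 4.32 and 4.28 in WT and 4.47 and 4.57 in SA. Fau, made as a fusion with a ubiquitin-like protein, was 1.63 and 1.92 in WT and 2.04 and 2.13 in SA. These 4 were higher in both SA libraries, and none passed.

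Related gene lists were set beside the members, each by its count and median. Over all genes tested, 61.8% were higher in SA and 38.6% were higher in both SA libraries, with a median of 0.07. A list of 12 elongation factors and related genes, among them the Eef2 kinase Eef2k, had 12 higher, 10 of them in both SA libraries, and a median of 0.20, near that of the ribosomal proteins. They include Eef1a2, the isoform of muscle and neurons, at 1.38 ± 0.29 (SE; adjusted p 0.081), Eef2k at 0.46 ± 0.11 and Eef1d at 0.25 ± 0.06 (SE). Of 74 tested mitochondrial ribosomal proteins, 69 were higher, 54 of them in both SA libraries, with a median of 0.21 and Mrps17 (0.33 ± 0.06, SE), Mrpl49 (0.44 ± 0.08) and Mrps35 (0.47 ± 0.09) at the lowest p. The 19 tested of the other TOP mRNAs had 14 higher and a median of 0.17, with Eif4b at 0.27 ± 0.06, Eef1d at 0.25 ± 0.06 and the poly(A)-binding protein Pabpc1 at -0.30 ± 0.07 (SE).

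Genes that build or regulate the ribosome had medians near 0. The 40 ribosome biogenesis factors had 18 higher and 22 lower with a median of -0.01; Pes1 was -0.35 ± 0.07, Bysl -0.51 ± 0.13 and Ddx21 -0.28 ± 0.07 (SE). The 31 initiation factors had 18 higher and 13 lower with a median of 0.04, with Eif1 at -0.38 ± 0.06, Eif4b at 0.27 ± 0.06 and Eif3e at 0.23 ± 0.06 (SE) at the lowest p. The 13 tested genes of a list of mTORC1 components and regulators of translation and growth had 3 higher and 10 lower with a median of -0.02; Rptor was -0.24 ± 0.06, Tsc2 -0.20 ± 0.06 and Larp1 -0.21 ± 0.08 (SE). No gene of these lists passed the adjusted threshold. Differences between the lists were not tested.

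**Figure D5:**
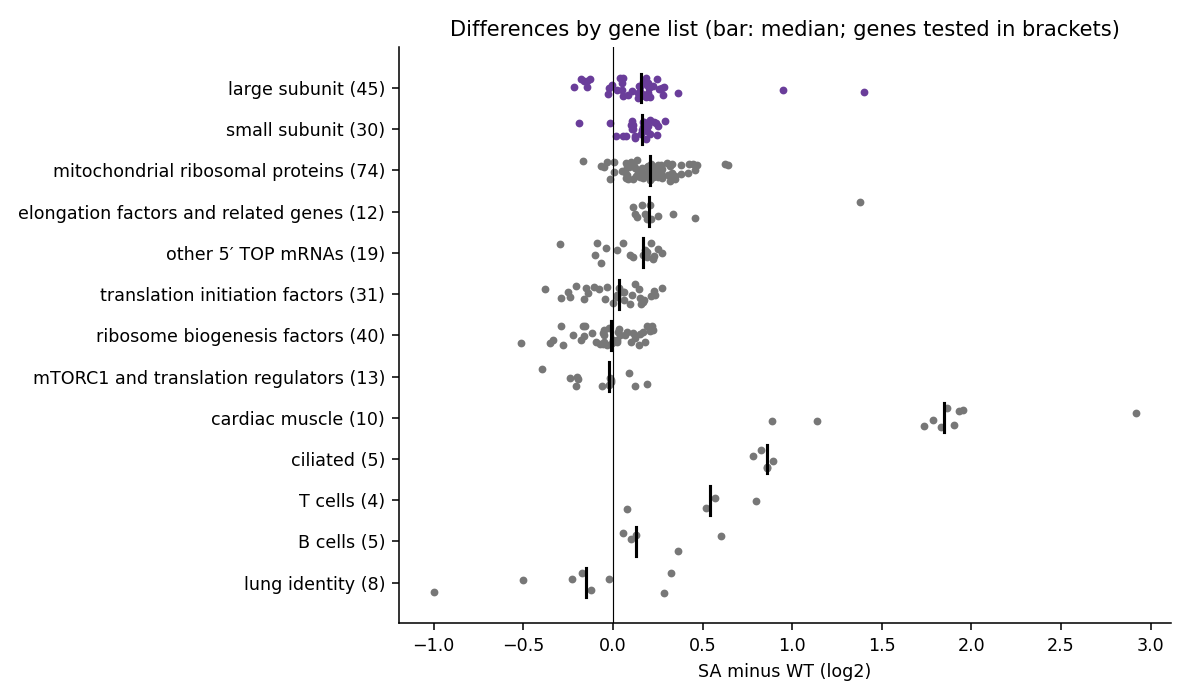
SA minus WT difference (log2) of each tested gene, by list, with the median as a vertical bar and the number of genes tested in brackets. The large and small subunits (medians 0.16 and 0.16), mitochondrial ribosomal proteins (0.21) and the elongation factor list (0.20) lie to the right of 0, biogenesis factors (-0.01) and mTORC1 genes (-0.02) around it, and cardiac muscle markers (1.85) far to the right.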

How the data were processed

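Stranded, rRNA-depleted total RNA libraries of 4 lung samples were analysed. The authors aligned with Subread, counted with featureCounts and used limma on GRCm38, per the submitters' processing notes, which give no versions; the deposited values are log2 CPM. From the low values, each deposited log2 CPM equals log2 of (reads + 0.5) over (library total + 1), scaled to CPM: whole reads were recovered for 100.0% of genes within 0.001 read, and were used for read counts and for voom as an alternative. Repeated Ensembl IDs held equal values, and 1 row was kept.

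limma 3.58.1 (R 4.3.3) was fitted with a mean-variance trend on genotype alone, to 14534 genes with a mean of at least 1 log2 CPM, two-sided, with Benjamini-Hochberg adjustment over all of them and a threshold of 0.05. Residual degrees of freedom were 2. With 2 libraries against 2 no exact permutation test can reach that threshold. The fit was also run on simulated data in which noise was independent between libraries. The outcome is not given here, and no result rests on it. The members and lists were chosen with earlier results of these data known. Members were named with values if they passed, were among the 6 largest differences each way, or had a listed role or paralog. For each list of ribosome and translation genes, the 3 genes with the lowest p are named. Gene positions are from GENCODE M21 (GRCm38), promoters from RefSeq (GRCm38.p6). Some items are not reported here.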

Additional observations from a re-analysis of the deposited data

How the results depend on the processing

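Rpl15 rose in every alternative except the fit without a mean-variance trend and the leave-one-out fits, where 0 members passed. With no filter on low values 3 of 83 rose (Rpl15, Rpl3l and Rpl7a), where 2213 of 46603 genes passed, 67.6% of them higher. No member fell in any alternative. With the replicate number as a block, 14 members rose, 9 large and 5 small (among them Rpl15, Rpl3l, Rpl7a, Rpl32 and Rpl22), where 15.8% of all genes rose and 8.7% fell. Same-numbered libraries deviated together (correlation 0.62), but there are only 2 pairs and no label ties a number to an animal or a day, so the libraries share only a number.

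Over all genes, 21 rose and 15 fell. The counts were 198 and 155 with log2 of CPM plus 1, 280 and 258 at a mean of at least 3 log2 CPM, 240 and 368 with median centring, 1496 and 717 without a filter, 4 and 1 without a trend, 140 and 205 with quantile normalization, 2303 and 1264 with the replicate block, 389 and 306 with a robust prior, 144 and 91 with voom on recovered reads, and 161 and 215 when voom used median-of-ratios scaling. Leaving out 1 library gave 0 to 5 higher and 0 to 0 lower.

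The median difference of the members was 0.052 with median centring, 0.14 with quantile normalization, 0.10 with median-of-ratios voom, 0.18 in the authors' filtered table and 0.18 at a mean of at least 3. For the large subunit it was 0.049, 0.14, 0.10, 0.18 and 0.18 in the same order. For the small subunit it was 0.055, 0.14 and 0.11 in the first 3. Over the 70 members of both subunits left without the paralogs, the median difference was 0.16. Leaving out 1 library gave 0.160 to 0.182 for the members, 0.159 to 0.177 for the large subunit, 0.145 to 0.188 for the small subunit, and -0.013 to 0.020 for large minus small.

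Small differences changed sign. With median centring Rpl22l1 was -0.0027, Rps27 -0.0090, Rps27a -0.049, Rpl7l1 -0.065, Rpl10 -0.084 and Rps4l -0.092. With quantile normalization Rpl22l1 was -0.084, Rps27 -0.13, Rps27a -0.18, Rpl10 -0.19 and Rps4l -0.13. With median-of-ratios voom Rps27a was -0.011, Rpl7l1 -0.013, Rpl10 -0.038 and Rps4l -0.034. Leaving out 1 library gave -0.16 (WT 2) to 0.35 (WT 1) for Rps27, with -0.011 for SA 1; -0.057 (SA 1) to 0.17 (SA 2) for Rps27a; -0.038 (WT 1) to 0.085 (WT 2) for Rpl10, with -0.023 for SA 1; -0.079 (WT 1) to 0.11 (WT 2) for Rps4l, with -0.053 for SA 2; -0.14 (WT 1) to 0.14 (WT 2) for Rplp2, with 0.080 for SA 2; and -0.29 (SA 1) to 0.0083 (SA 2) for Rpl12. The cause of these changes was not tested. Over all pairs of a named member and an alternative, 385 kept direction and side of the threshold, 25 changed sign, 9 passed the threshold anew and 5 lost it. Depth limits the 8 members under 1 log2 CPM, the highest of which had 47 to 70 reads per library.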
